A study of Mus musculus with 6 samples.

Results

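The 8 hypothalamic neuropeptide genes Hcrt, Tac1, Nts, Cck, Sst, Npvf, Trh and Pdyn were followed in single cells sorted from mouse hypothalamus, 8 of the 329 genes measured (the reporter included). They were chosen by name, as peptide precursors of the hypothalamus, with no threshold on a measured value. Earlier results of these data were known when they were chosen. All cells came from C57/Bl6 mice of the genotype KLB-CRE; Ai14, with no second condition, and the ages and sexes of the mice were not used here. Klb encodes the co-receptor through which the hormone FGF21 acts, and in this cross Cre switches on the tdTomato reporter for good, so the sort for tdTomato and for viability collected cells whose lineage had used the Klb-Cre allele at some time. There were 3 captures, each made from 3 pooled hypothalami, and transcripts were counted as UMIs (unique molecular identifiers, 1 per captured molecule) with targeted primer panels. The capture is the replicate here, and the mice within a capture cannot be told apart.

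Neuropeptides are made as long precursor proteins that are cut and modified inside dense-core vesicles and, once released, read by G-protein-coupled receptors on nearby or distant cells. A hypothalamic neuron often makes several of them beside glutamate or GABA, and peptide genes are therefore used to name its neuron types: Hcrt in the lateral area, Npvf in the dorsomedial nucleus, Trh and Sst in the paraventricular and periventricular nuclei. Their mRNA is usually abundant in the cells that make the peptide.

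A smaller set of 75 genes, measured in replicates 2 and 3, held 7 of the peptide genes, and a larger set of 265 genes (266 in replicate 3) held Pdyn alone. Of the barcodes, those with at least 20 UMIs and 5 genes were kept. The smaller set had 25 kept barcodes in replicate 2 and 104 in replicate 3, with a median of 1044 UMIs (830 to 1226) and 705 UMIs (309 to 1321). Kept barcodes of the larger set numbered 950 from panel 1 of replicate 1, 44 from its panel 2, and 43 and 87 from panel 2 of the other captures, with medians of 51, 115.5, 1352 and 1068 UMIs. The tables did not all hold what their labels say. The same 104 and 87 barcodes stood in both tables of replicate 3, the 104 in one of them under names of the larger set. Another 21 barcodes stood in tables of both replicates 2 and 3 and were left out. They held no Pdyn UMI under either header. All results on Tac1, Nts, Sst, Trh and Pdyn rest on replicate 3 and all on Hcrt and Cck on replicate 2, so each is given by capture.

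The peptide genes differed by capture. Hcrt and Cck were in 44% and 56% of the barcodes of replicate 2, and Tac1 and Nts in 47.1% and 39.4% of those of replicate 3. Each of these 4 genes was at 0 in the other capture. Of the 7 peptide genes of the smaller set, Npvf was the only one with UMIs in both captures, in 2 and 3 barcodes. Over all 75 genes of the set, 12 had UMIs in both captures, 15 in replicate 3 alone and 2 in replicate 2 alone, and these 2 were Hcrt and Cck. Shares are given below with exact Clopper-Pearson 95% intervals, and a count of 0 with the share that 3 barcodes would make. Both cover counting error only, and they bound barcodes with a UMI, not cells that express a gene.

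**Figure D1:**
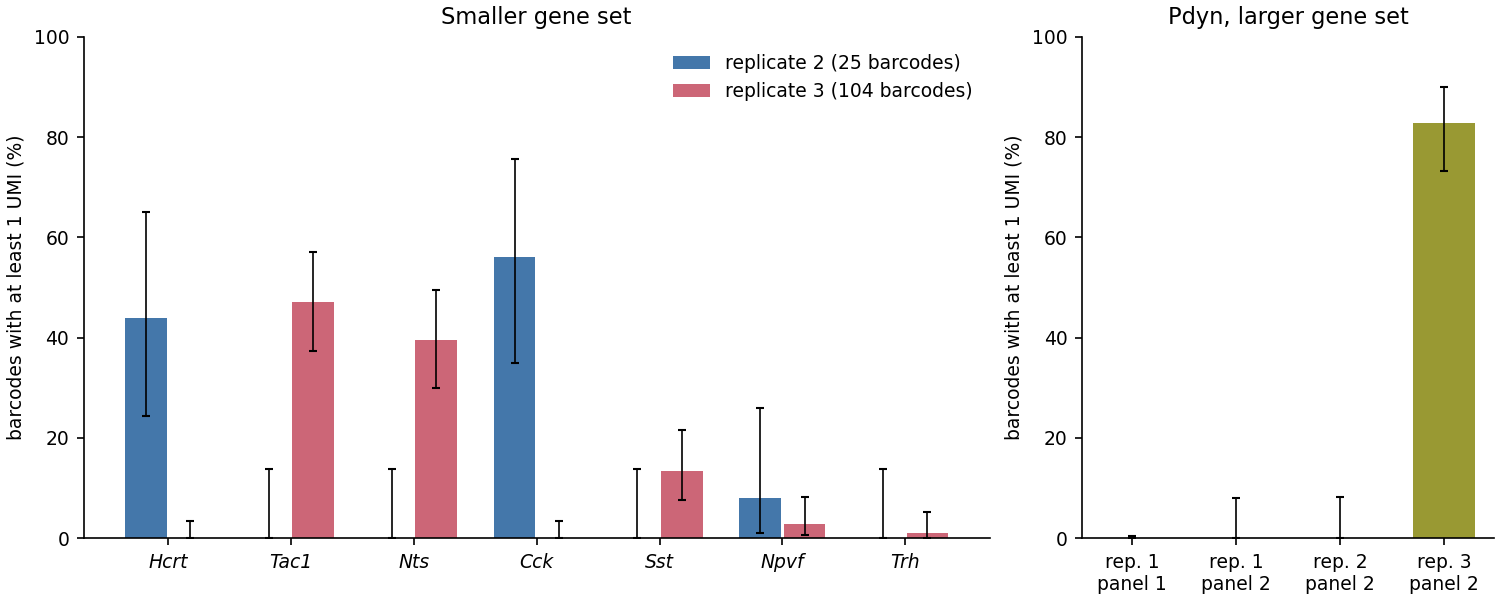
Share of kept barcodes with at least 1 UMI of each peptide gene (%), for the smaller set in replicates 2 and 3 (left) and for Pdyn in the 4 libraries of the larger set (right). Bars are shares and lines are exact 95% intervals. Hcrt (44%) and Cck (56%) stand in replicate 2 alone, Tac1 (47.1%) and Nts (39.4%) in replicate 3 alone, and Pdyn (82.8%) in replicate 3 alone.

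Hcrt (NM_010410.2) encodes the precursor of the orexins, which sustain wakefulness and feeding. It had a UMI in 11 of 25 barcodes of replicate 2 (44%, 24.4 to 65.1) and in none of the 104 of replicate 3, where a count of 0 allows up to 2.88%. Every one of the 11 barcodes had exactly 1 Hcrt UMI, so the level was 0.424 per 1000 UMIs and the variance over barcodes was 0.583 times the mean. The mean share over the captures was 22% ± 31.1 (SD, n = 2), a spread larger than the mean. Hcrt was not found more often in deeper barcodes: those with it had a median of 1042 UMIs and those without it 1061.5.

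Cck (NM_031161.4) encodes cholecystokinin, a peptide of gut and brain that acts in satiety. It had a UMI in 14 of 25 barcodes of replicate 2 (56%, 34.9 to 75.6) and in 0 of 104 of replicate 3, with the same limit of 2.88%. It was present at 0.963 per 1000 UMIs. Of the 14 barcodes, 7 had 1 UMI, 5 had 2, 1 had 3 and 1 had 5. The mean share was 28% ± 39.6 (SD, n = 2). Barcodes of replicate 2 were deeper than those of replicate 3, so the shares were also computed for each barcode thinned to 300 UMIs. Hcrt was then in 13.1% and Cck in 23.5% of barcodes of replicate 2, both above the 2.88% that 0 of 104 allows in replicate 3. Thinned shares are expected values, given here and below without an interval, so such comparisons do not include their counting error.

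Tac1 (NM_009311.2) encodes the precursor of the tachykinins substance P and neurokinin A. It had a UMI in 49 of 104 barcodes of replicate 3 (47.1%, 37.2 to 57.2) and in none of the 25 of replicate 2, where 0 allows up to 12%. There were 82 Tac1 UMIs, or 1.07 per 1000. Among the 49 barcodes, 31 had 1 UMI, 12 had 2, 1 had 3, 3 had 4 and 2 had 6. The variance was 1.77 times the mean, the highest ratio of the 7 peptide genes in the smaller set. The mean share over the captures was 23.6% ± 33.3 (SD, n = 2).

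Nts (NM_024435.2) encodes neurotensin, a peptide of the lateral and preoptic hypothalamus that modulates dopamine signalling, feeding and body temperature. It had a UMI in 41 of 104 barcodes of replicate 3 (39.4%, 30.0 to 49.5) and in 0 of 25 of replicate 2, with a limit of 12%. Its 62 UMIs made 0.806 per 1000. In 25 barcodes there was 1 UMI, in 11 there were 2 and in 5 there were 3. The mean share was 19.7% ± 27.9 (SD, n = 2). Thinned to 300 UMIs, Tac1 was in 24.7% and Nts in 20.0% of barcodes of replicate 3, both above the 12% that 0 of 25 allows in replicate 2.

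Sst (NM_009215.1) encodes somatostatin, which inhibits growth hormone release from the pituitary and marks a class of inhibitory interneurons. It had a UMI in 14 of 104 barcodes of replicate 3 (13.5%, 7.56 to 21.6), always exactly 1. It was at 0 in the 25 barcodes of replicate 2. At full depth the 13.5% of replicate 3 was above the limit of 12% in replicate 2, but its interval included 12%. Thinned to 300 UMIs the Sst share in replicate 3 was 6.23%, below that limit, so no difference between the captures is claimed. The mean share was 6.73% ± 9.52 (SD, n = 2).

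Npvf (NM_021892.1) encodes the RFamide-related peptides, known for restraining reproductive hormone release. It had 1 UMI in each of 2 barcodes of replicate 2 (8%, 0.984 to 26.03) and in each of 3 barcodes of replicate 3 (2.88%, 0.599 to 8.20). The intervals of the captures overlap, and the mean was 5.44% ± 3.62 (SD, n = 2). Trh (NM_009426.3) encodes thyrotropin-releasing hormone, the top of the thyroid axis. It had 1 UMI in 1 barcode of replicate 3 (0.962%, 0.0243 to 5.24) and none in replicate 2, where the limit of 12% shows no difference. Its mean share was 0.481% ± 0.680 (SD, n = 2).

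**Figure D2:**
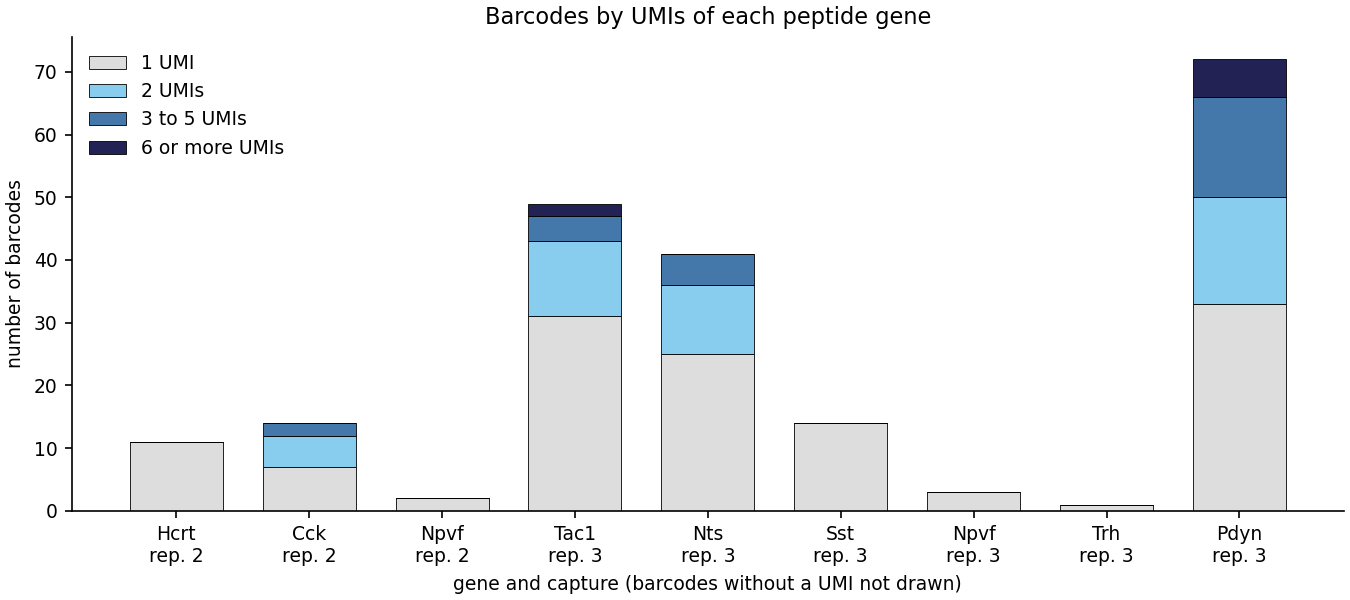
Number of barcodes (y axis) with 1, 2, 3 to 5 or 6 and more UMIs of each peptide gene, by gene and capture (x axis). Hcrt, Sst, Npvf and Trh never passed 1 UMI in a barcode, while Tac1 reached 6, Cck 5, Nts 3 and Pdyn 43.

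Low counts per barcode were shared by all 7 genes of the smaller set. The median barcode with a UMI of Hcrt, Tac1, Nts, Sst, Npvf or Trh had 1, and that with a Cck UMI had 1.5. All peptide UMIs of the smaller set together were 38 in replicate 2 (1.46 per 1000) and 162 in replicate 3 (2.11 per 1000). At least 1 of the 7 genes was in 20 of 25 barcodes of replicate 2 (80%, 59.3 to 93.2) and in 72 of 104 of replicate 3 (69.2%, 59.4 to 77.9). Different primers amplify each gene, so levels are not ranked between genes.

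Peptide UMIs sat in barcodes whose UMIs were mostly of a microglial gene. C1qa, a complement gene of microglia, Cx3cr1, their fractalkine receptor, and Mag, a myelin gene of oligodendrocytes, were in every barcode of the smaller set in both captures. C1qa alone made 85.0% of the UMIs of replicate 2 and 92.7% of replicate 3. Of 10 neuron markers 4 were measured, and Syt1, a synaptic vesicle gene, and Slc32a1, the vesicular GABA transporter, were at 0 in both captures. Snap25, a synaptic protein gene, was in 3 of 25 barcodes of replicate 2 and 80 of 104 of replicate 3. Slc17a6, the vesicular glutamate transporter, was in 0 and 24. No barcode lacked the C1qa transcript, so no class of barcodes could serve as a background for the peptide shares, and the part of free RNA in them was not tested.

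Levels of these marker lists overlapped between barcodes with and without a peptide. In replicate 3 the 4 measured neuron markers summed to a median of 2.47 per 1000 UMIs (0 to 7.85) in barcodes with Tac1 and 2.14 (0 to 7.96) in those without it. For Nts these medians were 2.71 and 2.05 and for Sst 1.87 and 2.50. The 4 measured microglia and macrophage markers, all 4 with UMIs, summed to medians of 952 and 961 per 1000 with and without Tac1 (918 to 986 and 898 to 987). In replicate 2 the neuron markers had a median of 0 in barcodes with and without Hcrt, and with and without Cck.

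The barcodes of replicate 3 were also split by single markers. Tac1 was in 42 of the 80 barcodes with Snap25 (52.5%, 41.02 to 63.8) and in 7 of the 24 without it (29.2%, 12.6 to 51.1). The intervals overlap, and barcodes with Snap25 had a median of 739.5 UMIs against 586.5. Thinned to 300 UMIs, the Tac1 shares were 27.8% and 14.2%. The Snap25 level was 2.61 per 1000 in barcodes with Tac1 and 2.19 in those without, and Mag was at 10.5 and 7.83. Nts was in 42.5% and 29.2% of the same classes, and in 21% and 16.6% after thinning. Sst went the other way, in 11.3% of barcodes with Snap25 and 20.8% of those without, with overlapping intervals (5.28 to 20.3 and 7.13 to 42.2). In replicate 2, Snap25 was in 2 of the 11 barcodes with Hcrt and 1 of the 14 without it.

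Nts was more often found with the glutamate marker. Barcodes with Nts also had higher median levels of oligodendrocyte, tanycyte and ependymal markers, and lower ones of microglia and macrophage markers. Nts was in 14 of the 24 barcodes with Slc17a6 (58.3%, 36.6 to 77.9) and in 27 of the 80 without it (33.8%, 23.6 to 45.2). The classes had median depths of 892 and 649 UMIs, and thinned to 300 UMIs the shares were 27.1% and 17.8%. The myelin gene Mag was at 11.5 per 1000 UMIs in barcodes with Nts and 7.38 in those without, and thinned to 300 UMIs in 94.9% and 87.5% of them. Rax, a tanycyte gene, was at 3.00 and 2.54 per 1000, and in 62.8% and 51.7% after thinning. The 2 measured oligodendrocyte markers summed to medians of 11.7 (2.62 to 43.5) and 8.36 (1.75 to 28.5) per 1000 with and without Nts. Rax, the only tanycyte marker measured, had medians of 3.34 (0 to 7.31) and 1.91 (0 to 11.2). The ependymal markers had medians of 5.30 and 3.65. Microglia and macrophage markers had 948 (909 to 979) and 962 (898 to 987), precursor markers 4.82 and 4.85, and astrocyte markers 0 in both. The part of these markers in the Nts shares was not tested. Tac1 by Slc17a6 gave 50% and 46.3%, and 22.6% and 25.3% after thinning. With and without Tac1, oligodendrocyte markers had medians of 10.1 and 8.74, Rax 2.65 and 1.97, and ependymal markers 4.97 and 3.82. Microglia and macrophage markers had 952 and 961, so these directions were not particular to Nts. For Sst, of these lists only the oligodendrocyte markers went the same way (10.2 and 9.27). These are barcodes of 1 capture, which are not replicates, so none of these differences was tested.

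Depth moved with the detection of Tac1 and Nts. Barcodes with Tac1 had a median of 808 UMIs against 617 without it, and those with Nts 827 against 651. Barcodes with and without Sst had 697.5 and 705. In terciles of replicate 3 by depth, with medians of 518, 717 and 1016.5 UMIs, Tac1 was in 28.6%, 48.6% and 64.7% of barcodes. Nts was in 31.4%, 28.6% and 58.8%, and Sst in 20%, 2.86% and 17.6%. Per 1000 UMIs, Tac1 was at 0.581, 1.18 and 1.23 and Nts at 0.813, 0.447 and 1.05, so the Nts level had no order by depth.

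**Figure D3:**
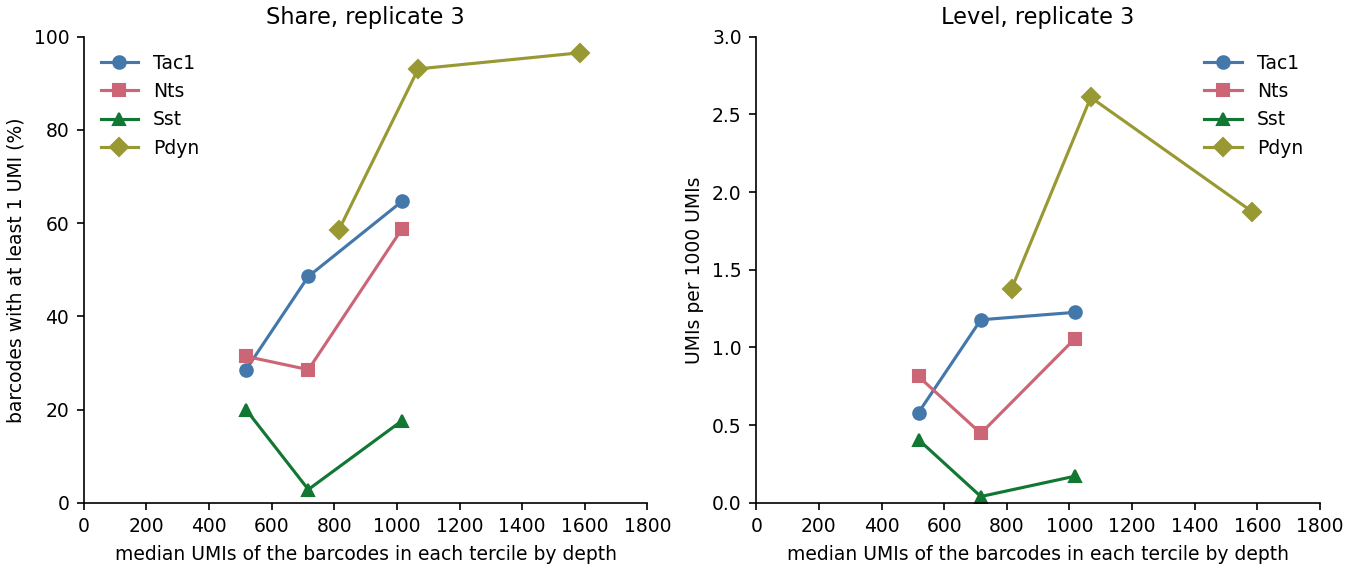
Share of barcodes with a UMI (left, %) and level (right, UMIs per 1000 UMIs) of Tac1, Nts, Sst and Pdyn in replicate 3 against the median UMIs of the barcodes, which were split into terciles by total UMIs. Tac1 and Pdyn shares were lowest in the shallowest tercile (28.6% and 58.6%), and the Sst share was lowest in the middle one (2.86%).

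At least 2 peptide genes were found in 6 of 25 barcodes of replicate 2 and in 28 of 104 of replicate 3. The number expected from the shares of the single genes was not computed, so no excess is claimed. In replicate 2, 5 barcodes had none of the 7 genes, 14 had 1, 5 had 2 and 1 had 3. In replicate 3, 32 had none, 44 had 1, 20 had 2 and 8 had 3. The median depth of these classes in replicate 3 was 626, 674.5, 829 and 933.5 UMIs, so barcodes with more peptide genes were the deeper ones. The part of depth in the pairs was not tested. Thinning cannot show it, since it lowers any count of barcodes with both genes.

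Tac1 and Nts made the most frequent pair. Both were in 24 barcodes of replicate 3, with a median of 916 UMIs. Nts was in 48.98% of the barcodes with Tac1 against 39.4% of all, and Tac1 in 58.5% of those with Nts against 47.1% of all. The phi coefficient of detection, which is 0 for no relation and 1 for a full one, was 0.185 over the 104 barcodes, a weak relation in sparse counts. With at least 2 UMIs required of each gene, 7 barcodes remained. Thinned to 300 UMIs, 6.74 barcodes were expected to keep both.

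The pairs with Sst were fewer. Tac1 and Sst were together in 8 barcodes and Nts and Sst in 7, which is 57.1% and 50% of the 14 barcodes with Sst, and their phi values were 0.0792 and 0.0854. All 3 genes were in 6 barcodes. Npvf was with Tac1 in 1 barcode and with Nts in 2, and the only barcode with Trh also had Tac1 and Nts. Sst with Npvf, Sst with Trh and Npvf with Trh were in 0 barcodes.

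Hcrt and Cck of replicate 2 were both in 5 barcodes. Cck was in 45.5% of the barcodes with Hcrt (16.7 to 76.6), an interval that includes the 56% of all barcodes. The phi coefficient was -0.188 over 25 barcodes, a weak relation in sparse counts. Both barcodes with Npvf had Cck and 1 of them had Hcrt too, the single barcode of this capture with 3 peptide genes.

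**Figure D4:**
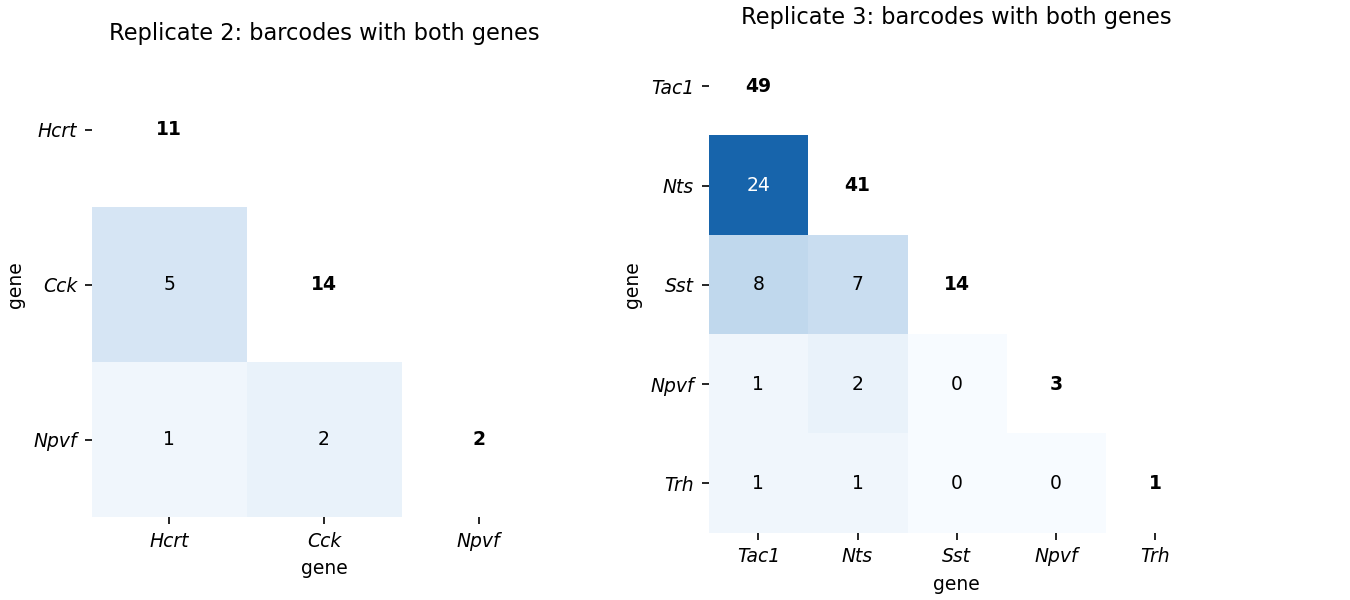
Number of barcodes with a UMI of both genes (shaded cells, gene against gene) and of each gene (bold, on the diagonal) in replicate 2 (left) and replicate 3 (right). The highest count is the 24 barcodes with both Tac1 and Nts, and Hcrt and Cck share 5.

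Genes were ranked by the phi coefficient among genes with a UMI in at least 10 barcodes, with no test and no minimum for barcodes without one. Of 16 other genes, Tac1 was most like Adcyap1r1, the receptor of the peptide PACAP (0.283), then Snap25 (0.197) and Nts (0.185). Adcyap1r1 was in 91.8% of barcodes with Tac1 and 69.1% of those without. Nts was most like Slc17a6 (0.212), Tac1 (0.185) and the chemerin gene Rarres2 (0.178). Sst had no gene above 0.118, which was Slc17a6, followed by the smooth muscle gene Myh11 (0.106) and Nts (0.0854). In replicate 2 just 3 genes could be compared: Hcrt had 0.329 with Aif1, a microglial gene, -0.188 with Cck and -0.273 with Mrc1, the macrophage mannose receptor. Cck had 0.492 with Mrc1, which was in all 14 barcodes with Cck and in 63.6% of the others, 0.175 with Aif1 and -0.188 with Hcrt. The value of Cck with Mrc1 rests on few barcodes without Mrc1, which was in 21 of 25. The genes of a barcode share its depth, and these values describe 1 capture each.

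Pdyn (NM_018863.4) encodes prodynorphin, the precursor of the dynorphins, opioid peptides that act at the kappa receptor and restrain the neurons that release them. It was at 0 in 3 of the 4 libraries of the larger set and in most barcodes of the fourth. None of the 950 barcodes of panel 1 of replicate 1 had a UMI, which allows up to 0.316%. It was also in 0 of 44 in panel 2 of replicate 1 (up to 6.82%) and 0 of 43 in panel 2 of replicate 2 (up to 6.98%). In panel 2 of replicate 3 it was in 72 of 87 barcodes (82.8%, 73.2 to 90.0). Averaged over the 3 captures of panel 2 this was 27.6% ± 47.8 (SD, n = 3). Over all genes of the larger set, 157 of 265 had a UMI in panel 1 of replicate 1 and 50 in its panel 2. In panel 2 of replicate 2 it was 93 of 265 genes, and in that of replicate 3 it was 120 of 266. Many genes besides Pdyn were therefore at 0 in each library. After thinning to 35 UMIs, a depth that most barcodes of replicate 1 reached, Pdyn was in 5.73% of replicate 3. That is above the limit of panel 1 of replicate 1 and below that of its panel 2, where a difference was not detectable at this depth. Thinned to 300 UMIs it was in 36.1%, above the limit of replicate 2, whose barcodes all had at least 600 UMIs.

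Pdyn had the widest spread of counts among the peptide genes. There were 217 UMIs, or 1.98 per 1000. Of the 72 barcodes with it, 33 had 1 UMI, 17 had 2, 10 had 3, 6 had 4 and 2 had 6, and the other 4 had 10, 13, 18 and 43. The mean was 3.01 ± 5.50 UMIs (SD over 72 barcodes) and the median 2. These 4 barcodes held 38.7% of all Pdyn UMIs. Those with 10, 13 and 18 UMIs were also among the deepest of the library, with 3066, 4589 and 4924 UMIs in total.

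The barcode with 43 Pdyn UMIs stood apart. Its total was 1247 UMIs, so Pdyn made 34.5 per 1000, against 6.62 in the next highest barcode and a median of 1.45 in barcodes with Pdyn. It held 19.8% of the Pdyn UMIs of the library. Without it the level was 1.61 per 1000, and the variance fell from 10.5 to 3.49 times the mean. In that barcode the cold-induced RNA-binding gene Cirbp was also high, at 40.9 per 1000 against 11.9 in the library. The barcode had 1 UMI of Gad2, 6 of tdTomato, 135 of the myeloid gene Fcer1g and 11 of Bcas1, a gene of early myelinating cells.

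**Figure D5:**
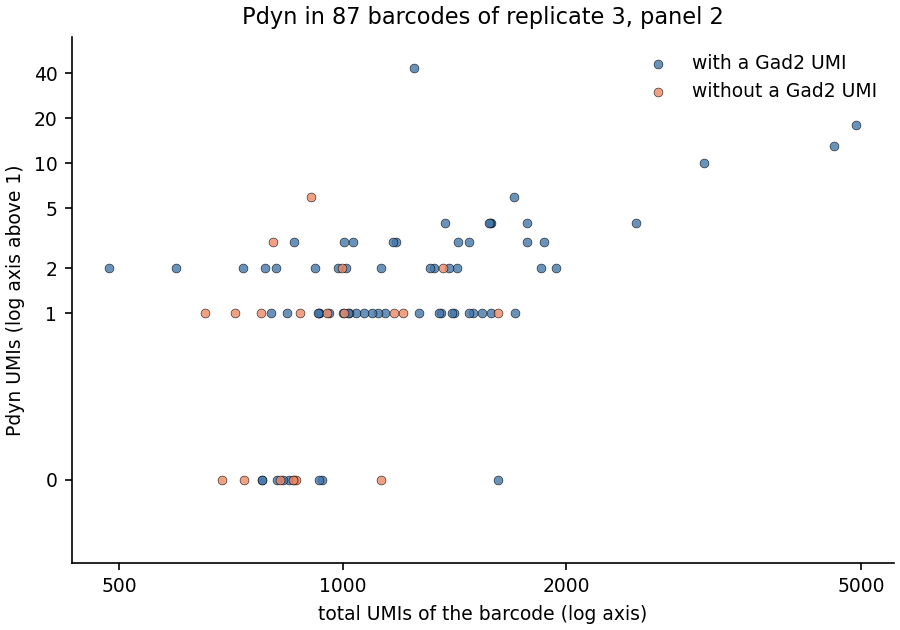
Pdyn UMIs (y axis, log above 1) against total UMIs (x axis, log) of the 87 barcodes of panel 2 of replicate 3. Each point is a barcode, in blue with a UMI of Gad2 and in orange without. The barcode with 43 Pdyn UMIs lies at 1247 total UMIs, apart from the 3 deep barcodes with 10, 13 and 18.

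Gad2, a GABA-synthesising enzyme gene, was in 59 of the 72 barcodes with Pdyn (81.9%, 71.1 to 90.0) and in 9 of the 15 without it (60%, 32.3 to 83.7). Seen from the other side, Pdyn was in 86.8% of the 68 barcodes with Gad2 and in 68.4% of the 19 without. Their median depths were 1156.5 and 876 UMIs, and thinned to 300 UMIs the shares were 38.1% and 28.8%. The other enzyme gene Gad1, the glutamate transporter Slc17a8 and the neuronal genes Stmn2 and Tubb3 were at 0 in all 87 barcodes. Of 7 neuron markers measured, Gad2 alone had UMIs. Fcer1g, a gene of myeloid cells, and Bcas1, of early myelinating cells, were in all 87. With UMIs pooled over barcodes, Fcer1g was at 97.1 per 1000 with Pdyn and 112 without, Bcas1 at 16.2 and 10.5, and Gad2 at 1.42 and 1.11. The deep barcodes with 18, 13 and 10 Pdyn UMIs held 445, 139 and 140 Bcas1 UMIs, so the pooled Bcas1 level leans on them. Per barcode, the neuron markers had medians of 1.08 per 1000 with Pdyn and 1.18 without. The oligodendrocyte markers had 50.02 and 53.29, and the microglia and macrophage marker 103.8 and 108.7. The part of these markers in the Pdyn shares was not tested. TdTomato was in all 72 barcodes with Pdyn and in 14 of the 15 without it.

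Depth moved with Pdyn too. Barcodes with it had a median of 1172 UMIs against 846. In terciles by depth, with medians of 815, 1068 and 1583 UMIs, Pdyn was in 58.6%, 93.1% and 96.6% of barcodes and at 1.38, 2.61 and 1.87 per 1000. The middle tercile holds the barcode with 43 UMIs. By the phi coefficient, Pdyn was most like the annexin gene Anxa2 (0.424), the astrocyte filament gene Gfap (0.321) and Cox6a2 (0.312), a subunit of cytochrome oxidase, of 70 genes with a median of 0.105. Anxa2 was in 97.2% of barcodes with Pdyn and 66.7% of those without. Anxa2 and Cox6a2 were each in 80 of 87 barcodes and Gfap in 74, so these values rest on few barcodes without the gene. The 2 measured astrocyte markers, Gfap among them, summed to medians of 1.71 per 1000 with Pdyn and 2.31 without.

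Pdyn and the other peptide genes were measured in different libraries, and few cells can be followed across them. In replicate 3, 2 cell indices were found in both sets. One had 1 Pdyn UMI and no UMI of the other 7 genes. The other had 2 Pdyn UMIs, 1 of Tac1 and 1 of Nts.

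Other neuropeptide genes were almost all at 0. Of 46 genes on a list of them, 28 were measured and 3 had a UMI, and of these only Pmch, the precursor of melanin-concentrating hormone, is a neuropeptide gene in the strict sense, with 1 UMI in 1 of 104 barcodes of replicate 3. The others were Adcyap1r1, a receptor placed on that list by error, in 83 of 104 barcodes of replicate 3 (79.8%, 70.8 to 87.04), and the growth factor gene Igf1, in 40 of 43 barcodes of panel 2 of replicate 2 and 32 of 87 of replicate 3. In the smaller set 20 of them were at 0 in all 129 barcodes, which allows up to 12% in replicate 2 and up to 2.88% in replicate 3. Among them were the feeding genes Agrp, Npy, Pomc and Cartpt, the posterior pituitary hormones Avp and Oxt, the releasing hormones Crh, Ghrh and Gnrh1, and Penk and Pnoc, which encode other opioid-family precursors. In the larger set 6 were at 0 in all 1124 barcodes, Nmu, Nms, Qrfp, Ucn3, Vgf and Pthlh. Of 22 list genes measured in the smaller set, 0 had a UMI in replicate 2 and 2 in replicate 3. Over all 75 genes of that set these counts were 14 and 27. Of 7 list genes in the larger set, 0 had a UMI in either library of replicate 1, and 1 in each other library. Over all genes these counts were 157 and 50 of 265 in replicate 1, 93 of 265 in replicate 2 and 120 of 266 in replicate 3. The 8 genes and this list were chosen with earlier results of these data known. The contrast between them is therefore not a result about the 8 genes.

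Most measured genes of the receptors that read these peptides were also at 0. Of 29 receptor and processing genes on a list, 16 were measured and 4 had a UMI. No listed receptor of the Hcrt or Npvf peptides was measured. In the larger set, 3 of 14 list genes had a UMI in panel 1 of replicate 1, against 157 of all 265 genes. In panel 2 the list had 0 in every capture, against 50 and 93 of 265 and 120 of 266. Counts of 0 there allow up to 6.82%, 6.98% and 3.45% of barcodes. In the smaller set, 0 and 1 of 3 had a UMI, against 14 and 27 of 75. Ntsr2, a neurotensin receptor, was in 45 of 104 barcodes of replicate 3 (43.3%, 33.6 to 53.3) and in none of replicate 2. Ligand and receptor, Nts and Ntsr2, were together in 20 barcodes. Ntsr2 was in 48.8% of barcodes with Nts and 39.7% of those without, with a phi coefficient of 0.0897. Tacr1, the substance P receptor, was in 13 of 950 barcodes of panel 1 of replicate 1, the somatostatin receptor Sstr4 in 3 and Trhde, which degrades thyrotropin-releasing hormone, in 1. The other receptors were at 0 in every library that measured them, among them Cckar and Cckbr for cholecystokinin and the opioid receptors Oprk1, Oprm1 and Oprd1.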

How the data were processed

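The authors' deposited values are UMI counts for each cell barcode and amplicon, not normalized. Per the file headers, panel 1 of replicate 1 went through version 1.3 of the BD Targeted Rhapsody Analysis Pipeline and all other tables through version 1.5. Errors in the molecular identifiers had been corrected, going by the names of the deposited tables. The submitters' processing notes name the build mm9. The aligner and the cell calling were not given in the sources used here.

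Each peptide gene had 1 amplicon, and amplicons of other genes were summed. Rows of a table were assigned to the gene set in whose columns they held counts, and the 25 smaller-set barcodes of replicate 2 that its panel 2 table repeats were used once. The filter of 20 UMIs and 5 genes removed 605 of the 1555 barcodes in panel 1 of replicate 1, and no barcode of another library. Doublets were not called. Thinned shares are exact hypergeometric expectations at 35 or 300 UMIs, tested on simulated data. With 1 condition and 2 or 3 captures no test was made, and barcodes were not treated as replicates. The text names the 8 genes, the 3 genes most like each by phi (at least 10 barcodes with each gene) and every list gene with a UMI. The list genes named at 0, and the marker genes Snap25, Slc17a6 and Gad2 used to split barcodes, were examples. Members and lists were chosen with earlier results of these data known. Python 3.11.15, numpy 2.4.6, pandas 2.3.3, scipy 1.17.1 and matplotlib 3.10.9 were used.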

Additional observations from a re-analysis of the deposited data

How the results depend on the processing

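No paired analysis was possible because the values come from no test and each peptide gene was measured in 1 gene set only. Thinning the shares to 300 UMIs, and taking panel 1 of replicate 1 in place of its panel 2 for Pdyn, were chosen after seeing the data. The mean share of Npvf, 5.44%, was 0% when 2 UMIs were required, 0.179% thinned to 35 UMIs and 1.54% thinned to 300. The mean shares of the other 7 genes moved by less than their SD over captures in all alternatives run, but that SD exceeds each mean. Requiring 2 UMIs left Hcrt, Sst and Trh at 0%, Cck at 14%, Tac1 at 8.65%, Nts at 7.69% and Pdyn at 14.9%. Leaving out each capture in turn gave 0% to 44% for Hcrt, 0% to 56% for Cck, 0% to 47.1% for Tac1, 0% to 39.4% for Nts, 0% to 13.5% for Sst, 2.88% to 8% for Npvf, 0% to 0.962% for Trh and 0% to 41.4% for Pdyn. The 5 barcodes with Hcrt and Cck became 0 with 2 UMIs required of each, 0.523 thinned to 300 UMIs, and 0 to 5 without each capture. The 24 with Tac1 and Nts became 7, 6.74, and 0 to 24. Without the 5% of barcodes with the most UMIs these pairs were in 4 and 22 barcodes. UMIs per barcode with the gene could not be recomputed without a capture, since each gene but Npvf was seen in 1. Depth limits the shares most in replicate 1, and the number of barcodes in replicate 2.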
